A study of Apis mellifera with 5 samples.

Results

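The hypopharyngeal glands (HGs) of 16-day-old worker honey bees were compared with those of 3-day-old workers through their RNA. Every unigene (an assembled transcript sequence of the honey bee gene index) with at least 1 read in either library was a member of the comparison. These numbered 19523, of 20522 unigenes with a read in any library of the series. Day 16 bees and day 3 bees were workers of Apis mellifera carnica Pollmann, full sisters bred from inseminated queens and reared to a known age after emergence from the comb. No treatment, mutation or transgene separated the ages, and age in days is the only labelled difference. The HGs of 30 bees were pooled for RNA at each of 5 ages (days 3, 6, 9, 12 and 16), and each pool gave 1 library. No ratio between day 16 and day 3 therefore has a replicate check, and the intervals and tests below cover counting error in 2 libraries only.

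The HGs are paired glands in the head of the worker. In young workers that nurse the brood they secrete the protein of royal jelly (RJ), chiefly the major royal jelly proteins (MRJPs). In older workers, which process nectar and later forage, the glands are known for enzymes that act on sugars, such as alpha-glucosidase, amylase and glucose oxidase. Day 3 lies before the usual nursing peak and day 16 after it, so the comparison asks which transcripts separate an older gland from a newly developing one.

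The day 16 library held 1815654 unique reads (reads that match 1 unigene alone), and the day 3 library held 1697792. A level is given as unique reads or as RPKM, in which those reads are scaled to the unigene's length and to the unique reads of the library. A difference is given as the log2 ratio of RPKM, day 16 over day 3, with a 95% exact (Clopper-Pearson) interval. Audic and Claverie's two-sided test was run on the reads of the 2 libraries, and unigenes with an FDR no higher than 0.001 and a log2 ratio of 1 or more in size are termed differentially expressed genes (DEGs) and described as called. The gland marker TC24109 (mrjp2), a main protein of RJ, was first of all unigenes by RPKM on day 16 and the second on day 3. Lists of other tissues were short. Of 6 fat body, 9 photoreceptor and 3 haemocyte names, 2, 2 and 1 reached 10 reads and 0 were called, so these lists say little, and TC15331 (Hemocytin) passed with TMM scaling. Names of muscle (31 of 63 higher) and antenna (4 of 32 higher) are described below.

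Of the 19523 unigenes, 491 (2.51%) were called higher on day 16 and 1932 (9.90%) were called lower. Higher calls were larger, with a median log2 ratio of 2.41, against -1.54 for lower calls. At an absolute log2 ratio of 2 or more there were 305 higher and 341 lower calls, and at 5 or more there were 29 higher and 14 lower calls. The 491 unigenes called higher took 33.4% of the unique reads on day 16, against 6.40% on day 3. The 1932 called lower took 9.85% on day 16, against 27.2% on day 3.

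The balance of the 2 directions rested on the scaling. Over the 13569 unigenes that reached 10 reads in the pair of libraries the median log2 ratio was -0.51, and TMM scaling raised every ratio by 0.50. With TMM, 828 unigenes (4.24%) were called higher and 672 (3.44%) lower, so that 55.2% of calls were higher, against 20.3% with the total of unique reads. All 491 higher calls stayed higher with TMM, and 672 of the 1932 lower calls stayed lower. When a coefficient of variation of 0.2 between replicate libraries was assumed in edgeR's exact test, 225 unigenes were called higher and 118 lower. Changes of gene groups are given below beside the median of all unigenes for this reason.

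**Figure D1:**
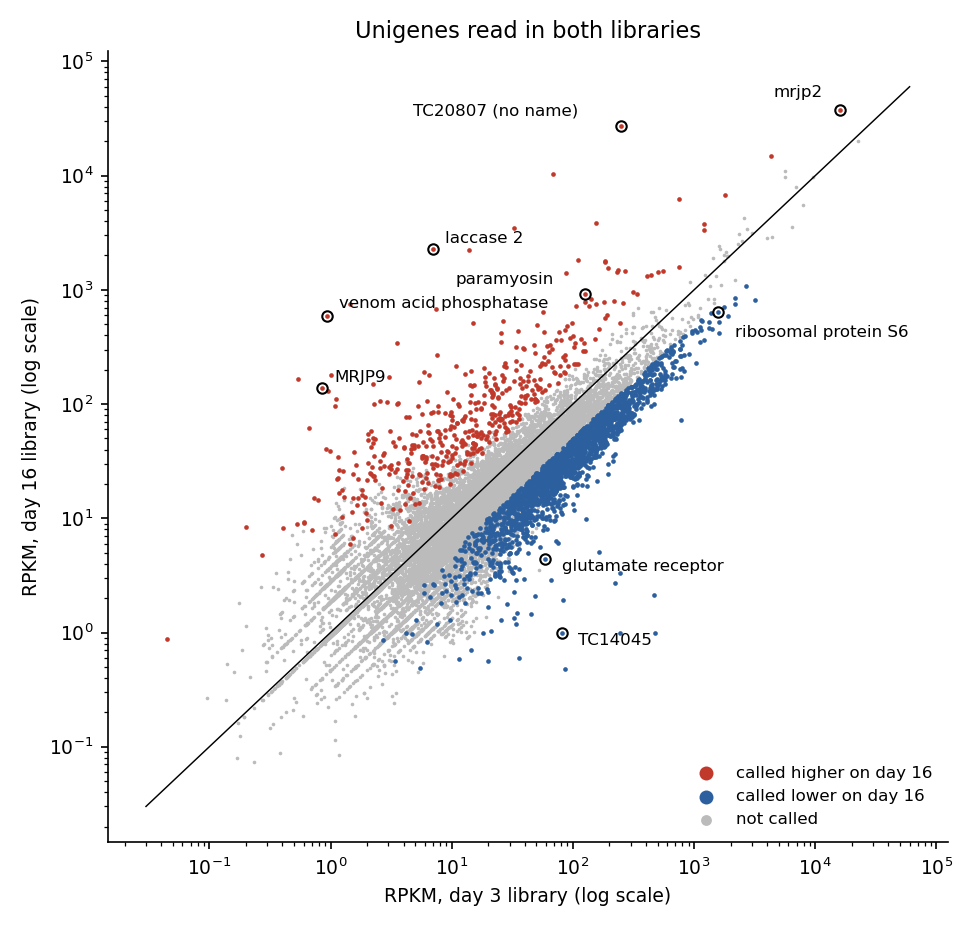
RPKM of each unigene read in both libraries, day 16 on the vertical axis and day 3 on the horizontal axis, both on log scales, with DEGs called higher on day 16 in red, lower in blue and the rest in grey. The line marks equal RPKM, and most blue points lie close below it while the red points spread over several orders of magnitude, up to TC20807 at 27048 RPKM on day 16 and 249 RPKM on day 3.

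Most unigenes that were read in 1 library alone had few reads. Of 1145 unigenes read on day 16 only, the median had 1 read and 14 were DEGs, with up to 241 reads. Of 1528 read on day 3 only, the median had 1 read and 18 were DEGs, with up to 201 reads. A count of 0 allows up to 3 reads, so the absence of the others was not detectable at this depth.

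Gene names reach the 2 directions unevenly. The annotation covers 7628 unigenes, all under 10 RPKM on day 3 (highest 9.999). The same number of unigenes were read on day 3 at under 10 RPKM, with the same counts called. Unigenes read on day 16 only thus appear to lie outside the annotation. Of the 7628 in the annotation, 199 (2.61%) were called higher and 25 (0.328%) lower on day 16. Among the 11895 unigenes outside it, 292 (2.45%) were called higher and 1907 (16.0%) lower. With at least 10 reads, the median log2 ratio was 0.02 for 2909 unigenes of the annotation and -0.61 for 10660 outside it. Unigenes outside the annotation carry a name only where the study gives one. A named list drawn from the annotation could thus hold few lower calls, and each list below is read against the shares of its own class of unigenes.

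**Figure D2:**
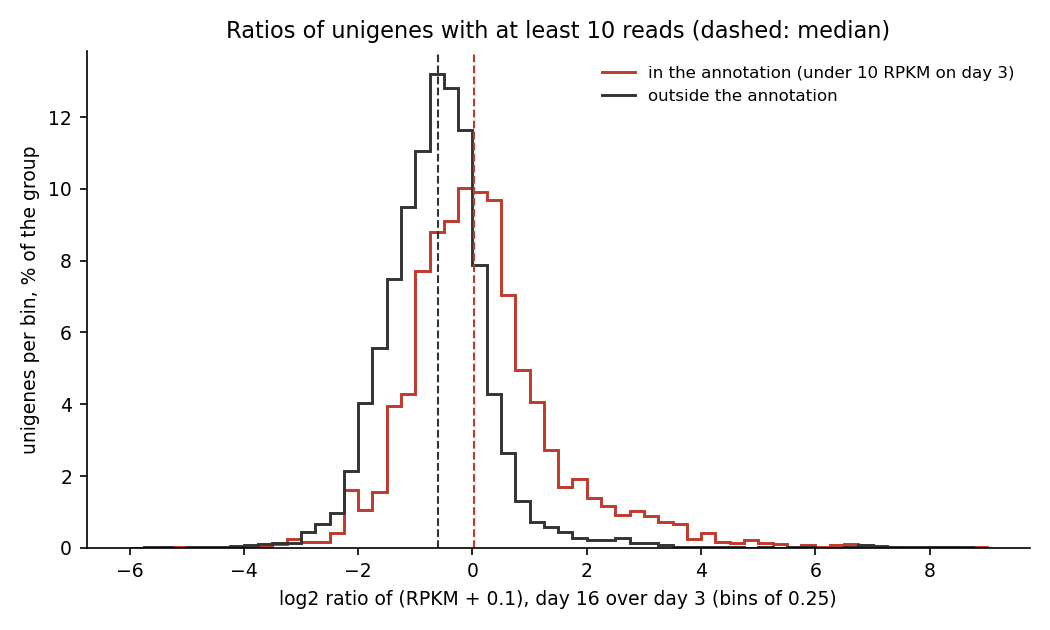
Distribution of log2 ratios of RPKM plus 0.1, day 16 over day 3, in bins of 0.25, for unigenes with at least 10 reads over both libraries, as a percentage of each class. The medians (dashed) lie at 0.02 for unigenes of the annotation (red) and at -0.61 for the others (black).

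Of the named members below, 4 can be traced by the primers that the study designed for quantitative PCR. They are shown because the names of unigenes come from best matches and 1 of the 4, TC14045, carries conflicting names. In the study's quantitative PCR these 4 went the same way from day 3 to day 16 as the reads. The rises of TC12842 and TC13222 were larger there, and the fall of TC15827 was smaller. For TC16687, NP9548518, TC17621 and TC21748, called lower here, it gave a higher level on day 16. The rest of the unigenes it tested kept the direction of the reads. The sequences read 5′ to 3′, in lower case throughout, forward primer first.
TC14045 forward: ggtggattaccgacagaaacat
TC14045 reverse: ccaggaacagcaacagcatta
TC15827 (ionotropic glutamate receptor) forward: caaaaagcccatcaaacagaa
TC15827 reverse: tggacacggtaaagagaacgat
TC12842 (myophilin-like muscle protein) forward: tagtcagcgtcatcgttcaa
TC12842 reverse: ctcattctcttgttccttgttgc
TC13222 (mrjp7) forward: agattgtgggttttggactcag
TC13222 reverse: cttccctgttctgtggtggtat

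The highest ratio among named unigenes with at least 100 reads belonged to TC14476, a match to venom acid phosphatase of the honey bee, an enzyme known as a venom allergen. It had 2022 reads (587 RPKM) on day 16 and 3 reads (0.931 RPKM) on day 3, a log2 ratio of 9.30 (7.75 to 11.58). A second unigene matching the same protein, TC12438, had 76 reads on day 16 and 4 reads on day 3, a log2 ratio of 4.15 (2.74 to 6.06). TC20544, the honey bee's hyaluronidase precursor, encodes an enzyme that cleaves hyaluronan and is likewise known from venom. It had 551 reads on day 16 and 9 reads on day 3, a log2 ratio of 5.84 (4.90 to 6.98). TC14919, whose best protein match is a plasma kallikrein of an ant and whose cluster match is a honey bee venom protease, had 2203 reads (747 RPKM) on day 16 and 4 reads (1.45 RPKM) on day 3, a log2 ratio of 9.01 (7.65 to 10.89). All 4 were DEGs with the assumed spread as well. They were also DEGs with TMM scaling, which raises every ratio and so could hardly remove a higher call.

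Of the 10 unigenes with a venom or hyaluronan name, these 4 (40%) were called higher and 0 lower. The annotation, which holds all 10, had 2.61% higher and 0.328% lower. This list of 10 was drawn up after the values had been seen, so its share is not a test. Its other 6 members had at most 22 reads in either library, and 2 unigenes of the venom carbohydrate-rich protein had 1 read each on day 16, with 3 reads in TC18842 and 1 read in DB745355 on day 3. Among 7 acid phosphatase names, TC18058, a testicular acid phosphatase match, was the third DEG beside the 2 venom acid phosphatase unigenes, with 153 reads on day 16 and 19 reads on day 3. These 3 are 42.9% of the 7, which lie in the annotation too and were also listed after the values had been seen.

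TC13781 matched laccase 2, a copper enzyme that oxidises phenols and in insects hardens and darkens the cuticle. It had 8797 reads (2285 RPKM) on day 16 and 25 reads (6.95 RPKM) on day 3, a log2 ratio of 8.36 (7.80 to 8.99). By RPKM it stood at rank 27 on day 16 and at rank 12161 on day 3. TC22318, a match to an alpha-tocopherol transfer protein, a carrier of vitamin E, had 328 reads on day 16 and 1 read on day 3, and its interval of the log2 ratio ran from 5.77 to 13.57. TC15743 and TC20607 matched the same chondroadherin-like protein of an ant and had 382 and 143 reads on day 16, against 2 reads each on day 3. Whether they are pieces of 1 transcript was not tested.

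The remainder of the 15 highest ratios held enzymes and carrier proteins. TC16552, a match to an ecdysteroid UDP-glucosyltransferase, a class of enzyme that joins glucose to small molecules, had 762 reads on day 16 and 20 reads on day 3. NP9552306 matched a kynurenine/alpha-aminoadipate aminotransferase, an enzyme of tryptophan and lysine breakdown, and had 220 reads on day 16 and 5 reads on day 3. TC14824, a circadian clock-controlled protein match, had 375 reads on day 16 and 8 reads on day 3. The other 4 were TC16189 (a CG7367 match), TC16088 (a cytochrome P450), TC20856 (a hypothetical protein) and TC13645 (odorant binding protein 4), with log2 ratios from 5.14 in TC13645 to 6.60 in TC16189. The 15th is TC12355 (MRJP9), described with the royal jelly proteins.

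**Figure D3:**
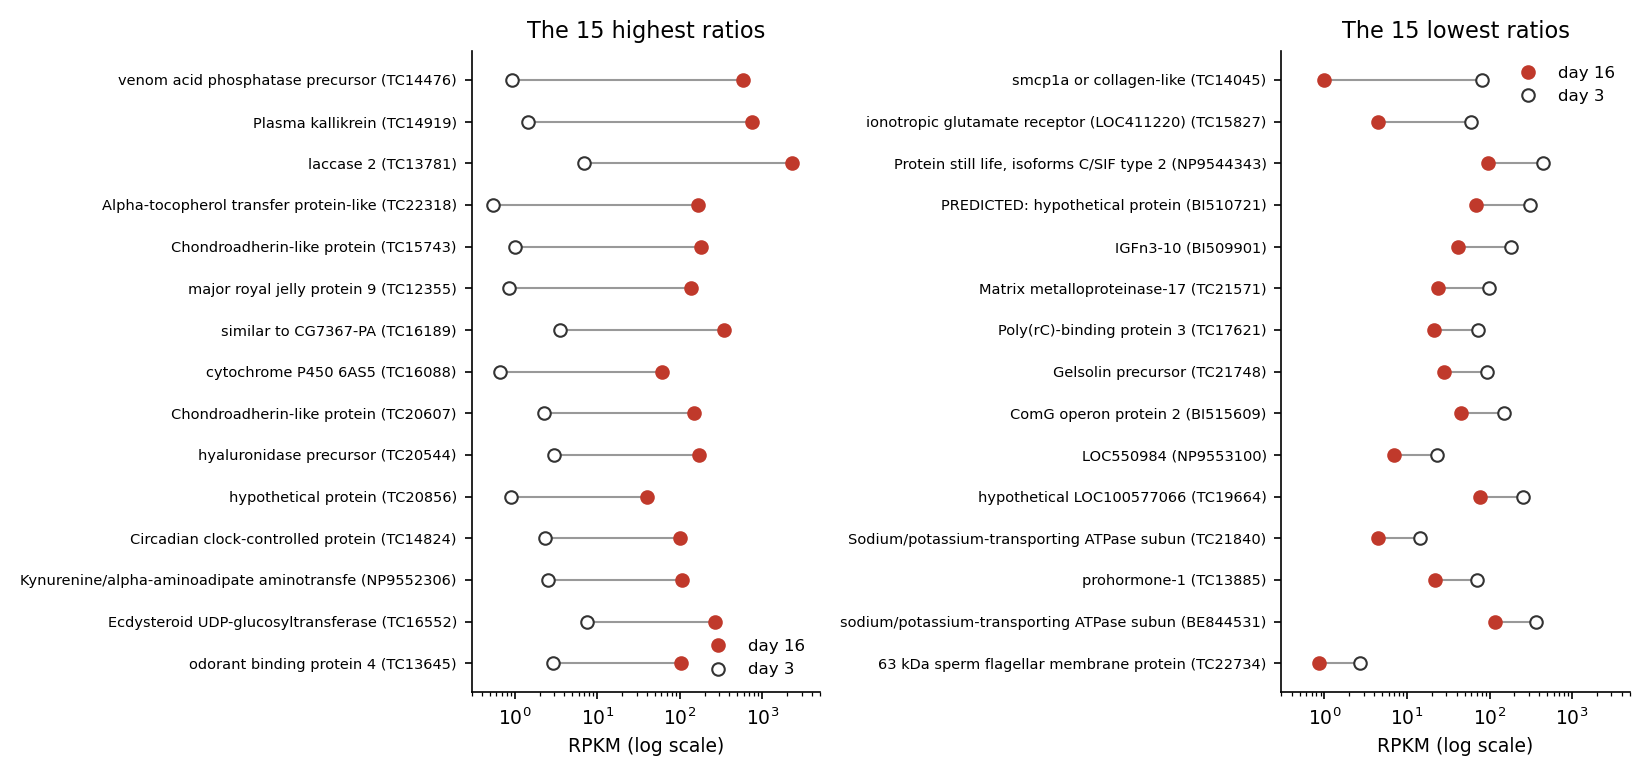
RPKM on day 16 (filled) and day 3 (open), on a log scale, of the 15 highest (left) and 15 lowest (right) called log2 ratios among named unigenes with at least 100 reads over both libraries. Ratios on the left run from 9.30 (TC14476) to 5.14 (TC13645) and on the right from -6.33 (TC14045) to -1.66 (TC22734).

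The most abundant transcripts of the day 16 gland included several without a name. TC20807 had 124345 reads on day 16 and 1072 reads on day 3, a log2 ratio of 6.76 (6.67 to 6.85), and took 6.85% of the unique reads on day 16, against 0.0631% on day 3. It was the second unigene by RPKM on day 16 and stood at rank 503 on day 3. TC12373 had 37075 reads on day 16 and 233 reads on day 3, or 10271 and 69.0 RPKM, a log2 ratio of 7.22 (7.03 to 7.41). TC14254 had 9664 reads on day 16 and 57 reads on day 3. TC17549 had 3184 reads on day 16 and 28 reads on day 3. These 4 unigenes lie outside the annotation, and their products are not named in the files. By RPKM on day 16, TC12373, TC17549 and TC14254 stood at ranks 6, 17 and 29.

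The other abundant members given here were called higher or not called, which did not hold for abundant unigenes as a whole. Of 166 unigenes with at least 500 RPKM on day 3, 85 (51.2%) were called lower and 9 (5.42%) higher. TC20841, the first by RPKM on day 3, had 19986 RPKM on day 16 and 22443 RPKM on day 3. TC24306 had 9757 RPKM on day 16 and 9509 RPKM on day 3, and its interval of the log2 ratio, -0.01 to 0.08, included 0. TC12344 rose to 14714 RPKM on day 16, against 4306 RPKM on day 3. TC12375 had 3535 RPKM on day 16 and 6367 RPKM on day 3, a log2 ratio of -0.85 (-0.88 to -0.81) that is short of the threshold. The 10 unigenes of highest RPKM in each library held 24.96% of the unique reads on day 16 (24.90% to 25.02%, exact binomial interval) and 10.86% on day 3 (10.81% to 10.91%).

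Royal jelly proteins were called higher on day 16 in the 4 unigenes with most reads and in 0 of the rest. TC24109 (mrjp2) had 108872 reads (37832 RPKM) on day 16 and 42891 reads (15939 RPKM) on day 3, a log2 ratio of 1.25 (1.23 to 1.26). TC13222 (mrjp7) had 9119 reads on day 16 and 3067 reads on day 3, a log2 ratio of 1.48 (1.42 to 1.53). BP540149, a second unigene the study names mrjp2, had 1193 reads on day 16 and 391 reads on day 3. The fold of mrjp2 was 2.37 and that of mrjp7 was 2.78, and with the assumed spread between replicate libraries neither these 2 nor BP540149 were called.

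TC12355 (MRJP9), a family member known from venom and from many tissues rather than from jelly, differed from them in size of change. It had 525 reads on day 16 and 3 reads on day 3, a log2 ratio of 7.35 (5.80 to 9.64). TC12413 (MRJP8), its relative outside the jelly, had 38 reads on day 16 and 15 reads on day 3, a log2 ratio of 1.24 (0.35 to 2.21) that passed with TMM scaling only. Of 33 unigenes with a royal jelly name, 4 (12.1%) were called higher, 0 lower and 29 neither, beside 2.51% higher and 9.90% lower of all unigenes. The annotation, where 30 of the 33 lie, had 2.61% higher and 0.328% lower. Of the 4 called, only TC12355 lies in it. TC24109, TC13222 and BP540149 carry names only from the study, which chose unigenes on these libraries. The 12.1% is thus not independent of its choice. The 14 members with at least 10 reads had a median log2 ratio of 1.14, beside -0.51 for all unigenes and 0.02 for the annotation. The unigenes named for MRJP1, MRJP3, MRJP4 and MRJP5 had at most 16 reads in either library. Names cover only unigenes under 10 RPKM on day 3 and those the study names. An abundant unigene of these proteins could therefore be without a name here, so their level cannot be read from this. The unique reads covered 0.437 of the length of TC24109 in both libraries, so much of this sequence drew no unique read, and close copies of the family are counted only where they differ.

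The yellow family, from which the MRJPs are thought to derive, had 6 unigenes. Of these 1 (16.7%) was called higher and 0 lower, beside 2.51% and 9.90% of all unigenes. It was TC12331 (yellow-h), with 21 reads on day 16 and 0 reads on day 3 (at least 6.55-fold higher against a floor of 3 reads). The study names TC12331 among its DEGs of day 16 in these libraries, so the 16.7% is not independent of its choice. TC14541 (yellow-e2/e3) had 7 reads on day 16 and 23 reads on day 3, with an interval of -3.28 to -0.55 and an FDR of 0.00845 in Audic and Claverie's test.

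Enzymes that act on sugars were called higher in 6 of 36 unigenes (16.7%) and lower in 0, beside 2.61% and 0.328% in the annotation. Of these 6, 4 matched glucose dehydrogenase, which oxidises glucose and is a relative of glucose oxidase. The most abundant, TC13216, had 347 reads (96.0 RPKM) on day 16 and 26 reads (7.69 RPKM) on day 3, a log2 ratio of 3.64 (3.07 to 4.28). NP9552746, TC15077 and TC21807 had 45, 57 and 44 reads on day 16, against 3, 6 and 10 reads on day 3. NP9553382, a trehalase, the enzyme that splits the blood sugar trehalose, had 52 reads on day 16 and 14 reads on day 3. DB772014 (alpha-amylase), which breaks down starch, had 18 reads on day 16 and 0 reads on day 3. The study names NP9552746, TC21807, NP9553382 and DB772014 among its DEGs of day 16 in these libraries. The share of 16.7% is thus not independent of its choice.

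With the assumed spread 3 of the 6 stayed called, all of them glucose dehydrogenases. Other sugar enzymes did not pass. TC19959, which the study names alpha-glucosidase and reports on day 16, was not called. Its log2 ratio was set to 0, because neither library had more than the floor of 3 reads for it. BP539841, which the study names both glucose oxidase and a phospholipase, had 77 reads on day 16 and 81 reads on day 3, although it had 272 reads on day 12. TC19526 (glucocerebrosidase), which removes glucose from a lipid, had 57 reads on day 16 and 34 reads on day 3, a log2 ratio of 0.65 (0.01 to 1.31). The median of the 20 members with at least 10 reads was 0.09, beside 0.02 for all unigenes of the annotation, which holds 32 of the 36.

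Muscle proteins held the most higher calls of any list. Of 63 unigenes with a sarcomere or muscle name, 31 (49.2%) were called higher and 0 lower, beside 2.61% higher among unigenes of the annotation, where 51 of them lie. Members outside the annotation carry names only from the study, which chose many of its muscle unigenes on these libraries. The 49.2% and the median of the list are thus not independent of its choice. The 46 members with at least 10 reads had a median log2 ratio of 2.59, and 43 of them lay above the median of all unigenes. With the assumed spread 25 were called higher. The list took 0.976% of the unique reads on day 16, against 0.156% on day 3. It also serves as the marker list of muscle in a dissected gland, and the part of attached muscle in the result was not tested. In RNA of a dissected gland, more cells of a type and more RNA per cell cannot be told apart, and the same holds for every tissue list here.

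Thick and thin filament members had similar ratios. TC14580 (paramyosin), a core protein of the thick filament, had 5172 reads on day 16 and 665 reads on day 3, a log2 ratio of 2.86 (2.75 to 2.98). TC15188 (myosin regulatory light chain 2) had 2034 reads on day 16 and 322 reads on day 3, a log2 ratio of 2.56 (2.39 to 2.74). TC13807 (tropomyosin-1), which lies along actin, had 1858 reads on day 16 and 279 reads on day 3, a log2 ratio of 2.64 (2.46 to 2.83). NP1608872 (troponin T), which anchors the calcium switch to tropomyosin, had 1791 reads on day 16 and 380 reads on day 3, a log2 ratio of 2.14 (1.98 to 2.30).

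Ratios of the large scaffold proteins of the sarcomere varied. NP9550883 (M-line protein unc-89) had 1290 reads on day 16 and 109 reads on day 3, a log2 ratio of 3.47 (3.19 to 3.76). CK629392, a titin match, had 57 reads on day 16 and 2 reads on day 3, the highest log2 ratio of the list at 4.74 (2.82 to 7.82). The small muscle protein TC12842 (myophilin-like) had 575 reads on day 16 and 48 reads on day 3, a log2 ratio of 3.49 (3.06 to 3.94). The unigenes that the study names titin, TC22830, DB737629 and DB752873 (the first and the last under another name too), were called higher with log2 ratios of 2.04, 2.41 and 2.65. Another titin match, NP9548719, had 32 reads on day 16 and 49 reads on day 3 and did not pass. TC19987 (troponin C) had 14 reads in each library.

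The study's M group, 29 unigenes that it chose on these libraries, was called higher in 29 of 29. This is not independent evidence of a direction. Beside the muscle members it holds TC14544 (regucalcin), a calcium-binding protein, with 2605 reads on day 16 and 749 reads on day 3, and TC15638, named fau protein, with 419 reads on day 16 and 29 reads on day 3.

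Enzymes that modify small molecules were called higher and in 0 cases lower. Of 29 cytochrome P450 unigenes, oxidases of lipids, hormones and plant compounds, 7 (24.1%) were called higher, beside 2.61% in the annotation that holds all of them, and the 15 with at least 10 reads had a median log2 ratio of 1.66. TC16088 had 197 reads on day 16 and 2 reads on day 3, TC12392 had 259 reads on day 16 and 20 reads on day 3, and TC12980 had 30 reads on day 16 and 5 reads on day 3. These 3 unigenes have the same best match, cytochrome P450 6AS5, so which copy of this clustered family rose is uncertain. NP9545948 (cytochrome P450 6a14) had 74 reads on day 16 and 1 read on day 3. Of 10 glutathione or UDP transferases, 4 were called higher, all of the UDP type.

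Of 61 unigenes for fatty acids and lipids, 6 (9.84%) were called higher and 0 lower, beside 2.61% and 0.328% in the annotation, where 60 of them lie. TC14207 and TC20045 matched fatty acyl-CoA reductase, which turns fatty acids into alcohols. TC14207 had 387 reads on day 16 and 21 reads on day 3, a log2 ratio of 4.11 (3.47 to 4.82), and TC20045 had 93 reads on day 16 and 26 reads on day 3. TC14076 and TC16109 matched an enzyme that lengthens very long fatty acids. TC14076 had 134 reads on day 16 and 10 reads on day 3, and TC16109 had 42 reads on day 16 and 11 reads on day 3.

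Odorant binding proteins, small carriers of hydrophobic molecules that are best known from the antenna, rose in 4 unigenes. TC12570 (odorant binding protein 16) had 244 reads on day 16 and 7 reads on day 3, a log2 ratio of 5.03 (3.96 to 6.36). TC13645 (odorant binding protein 4) had 113 reads on day 16 and 3 reads on day 3, and 2 unigenes of odorant binding protein 20, DB764488 and TC14799, had 46 and 23 reads on day 16, against 2 reads each on day 3. The 4 are 12.5% of the 32 members, beside 2.61% higher in the annotation. Of the other 28, 0 were called, and 8 of the 32 reached 10 reads, so most members could not have been called. TC24283, an odorant receptor match, had 4 reads on day 16 and 16 reads on day 3.

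Cuticle names did not share a direction. Of 42, 3 (7.14%) were called higher and 2 (4.76%) lower, beside 2.61% and 0.328% in the annotation, which holds all 42. The median of the 19 with at least 10 reads was -0.79, beside 0.02 in the annotation. Beside laccase 2 the higher ones were TC15457 (flexible cuticle protein), with 156 reads on day 16 and 5 reads on day 3, and TC20330 (endochitinase), which cuts chitin, with 395 reads on day 16 and 89 reads on day 3. The lower ones were TC23373 (acidic chitinase match), with 20 reads on day 16 and 74 reads on day 3, and NP9548267 (Laccase-4), with 2 reads on day 16 and 21 reads on day 3.

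**Figure D4:**
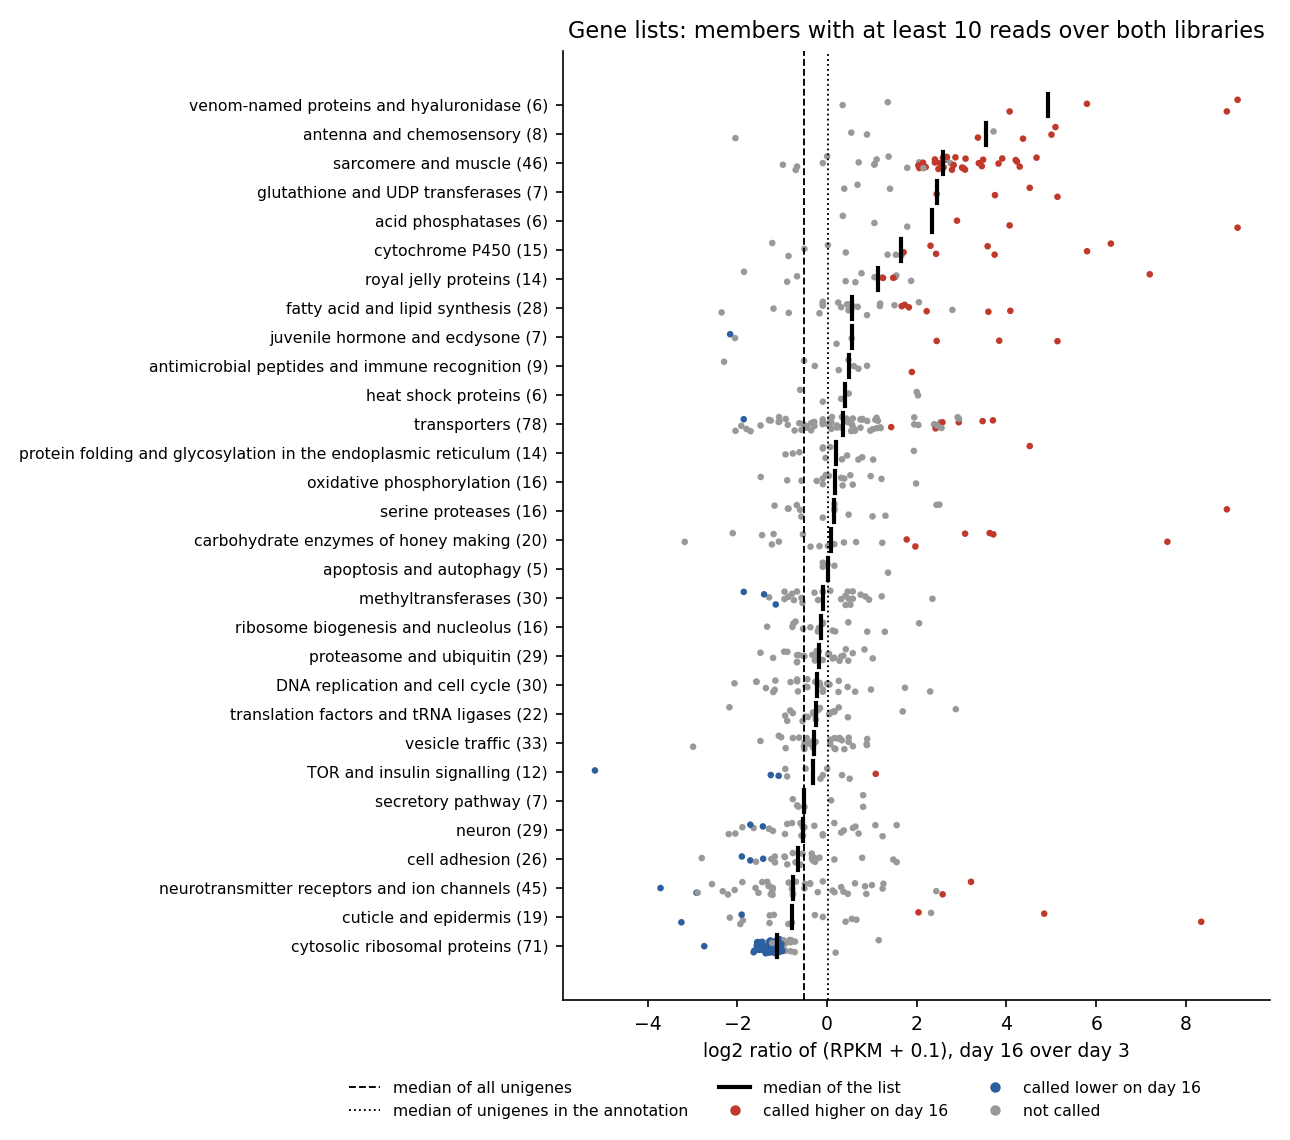
Log2 ratio of RPKM plus 0.1, day 16 over day 3, of each member with at least 10 reads (number in brackets), by gene list, with higher calls in red, lower calls in blue and the list's median as a bar. Dashed and dotted lines mark the medians of all unigenes (-0.51) and of unigenes of the annotation (0.02), and muscle names (median 2.59) and cytosolic ribosomal proteins (median -1.12) lie on opposite sides of both.

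Cytosolic ribosomal proteins were lower on day 16. Of the 71 unigenes in the study's ribosome list, chosen on these libraries, 55 (77.5%) were called lower and 0 higher, beside 26.1% lower and 4.85% higher among the 5260 unigenes outside the annotation with at least 100 reads. All 71 lay below the median of all unigenes, with log2 ratios of RPKM plus 0.1 between -2.74 and -0.71 and a median of -1.13. The ratios sat close to the threshold, so the calls turned on scaling: with TMM 7 of the 71 (9.86%) were called lower, beside 10.5% of the same background. With the assumed spread 0 were called. Of the 90 unigenes with a cytosolic ribosomal name, which include most of the 71, 54 (60.0%) were called lower and 0 higher, and 7 (7.78%) were lower with TMM. Of the 71 of them with at least 10 reads, 69 lay below the median of all unigenes and 2 above it. Those 2 are outside the study's list, all of which lay below. Because the names overlap so much with that list, their counts are not independent of the study's choice.

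The ribosomal members moved together in level. TC12663 (ribosomal protein S6), which the TOR pathway phosphorylates through S6 kinase, had 984 reads on day 16 and 2272 reads on day 3, a log2 ratio of -1.30 (-1.41 to -1.20). TC14117 (ribosomal protein L7A) had 866 reads on day 16 and 2051 reads on day 3, a log2 ratio of -1.34 (-1.46 to -1.23). TC12633 (ribosomal protein L23A) had 696 reads on day 16 and 1865 reads on day 3, and it kept its call with TMM, with a log2 ratio of -1.52 (-1.65 to -1.39) by the total. Together the 71 held 1.07% of the unique reads on day 16, against 2.40% on day 3. Of 24 ribosome biogenesis names and 48 translation factors or tRNA ligases, nearly all in the annotation, 0 were called, with and without TMM. At the 0.328% lower of the annotation and with 0 members at 100 reads, a fall like that of the ribosomal proteins could hardly have been called in these lists.

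The TOR and insulin pathway, which ties growth and protein synthesis to nutrients, held 3 lower calls among the 10 unigenes of the study's TOR list and 0 higher. That is 30.0%, near the 26.1% lower among unigenes outside the annotation with at least 100 reads, a number that all 10 reached, and with TMM 0 were called. Of 16 unigenes with a TOR or insulin name, 1 (6.25%) was called higher and 3 (18.8%) lower, beside 2.51% and 9.90% of all unigenes. TC15907 (AKT), a kinase downstream of insulin, had 251 reads on day 16 and 561 reads on day 3, a log2 ratio of -1.26 (-1.48 to -1.04). TC20981 (mTOR) had 127 reads on day 16 and 166 reads on day 3, a log2 ratio of -0.48 (-0.83 to -0.14), and TC13681 (Raptor) had 190 reads on day 16 and 197 reads on day 3. Neither was called, with or without TMM.

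Unigenes named insulin-like growth factor-binding protein went in both directions. TC21952 had 731 reads on day 16 and 322 reads on day 3 and was called higher. TC14287 had 63 reads on day 16 and 125 reads on day 3, and NP9547607 had 0 reads on day 16 and 18 reads on day 3, and both were called lower. With TMM TC14287 was no longer called, and with the assumed spread 0 of the 3 were.

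The lowest ratio among named unigenes with at least 100 reads was that of TC14045, which the study calls smcp1a in one place and a fibril-forming collagen alpha chain in another. It had 9 reads (0.999 RPKM) on day 16 and 679 reads (80.6 RPKM) on day 3, a log2 ratio of -6.33 (-7.47 to -5.40). The second lowest with at least 100 reads was an ionotropic glutamate receptor, a ligand-gated channel, which the study also names for a further unigene with fewer reads. TC15827 had 27 reads on day 16 and 338 reads on day 3, a log2 ratio of -3.74 (-4.37 to -3.18), and DB752140 had 12 reads on day 16 and 85 reads on day 3. Another glutamate receptor match, NP9553810 (kainate type), went the other way, with 83 reads on day 16 and 8 reads on day 3.

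The other named members with the lowest ratios fell by less. NP9544343 (still life), a protein first described at fly synapses, had 92 reads on day 16 and 395 reads on day 3, a log2 ratio of -2.20 (-2.54 to -1.87). TC21571 (matrix metalloproteinase-17), a protease of the cell surface, had 37 reads on day 16 and 142 reads on day 3. TC21840 and BE844531, named as alpha and beta subunits of the sodium/potassium pump, had 27 and 95 reads on day 16, against 82 and 283 reads on day 3. TC13885 (prohormone-1) had 26 reads on day 16 and 78 reads on day 3, and its call was lost with TMM. The rest of the 15 lowest ratios lay between -2.17 (BI510721, a hypothetical protein) and -1.66 (TC22734, a sperm flagellar membrane protein match), among them TC21748 (named gelsolin precursor or left uncharacterised), with 27 reads on day 16 and 86 reads on day 3. Quantitative PCR in the study gave TC21748 a higher level on day 16 than on day 3.

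These fallers belong to the study's R group, of which 23 of 24 were called lower and 1 higher, again in a list chosen on these libraries. With TMM 15 were called lower, and with the assumed spread 5. The exception, TC15513 (ABC transporter G family member 20), an ATP-driven membrane pump, had 371 reads on day 16 and 58 reads on day 3, a log2 ratio of 2.58 (2.18 to 3.01).

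Names of neurons and cell adhesion held some lower calls. Of 67 neuron names 2 (2.99%) were called lower and 0 higher, and of 44 adhesion names 3 (6.82%) were called lower and 0 higher, beside 0.328% lower in the annotation, and 0 of these calls held with TMM. TC22460 (acetylcholinesterase 2), which breaks down the transmitter acetylcholine, had 75 reads on day 16 and 193 reads on day 3, a log2 ratio of -1.46 (-1.87 to -1.07). NP9551534 and TC23989 (both Down syndrome cell adhesion molecule) had 28 and 10 reads on day 16, against 72 and 36 reads on day 3. Among 93 receptors for transmitters and ion channels, 2 (2.15%) were called higher and 2 lower, and the 45 with at least 10 reads had a median log2 ratio of -0.76. The median of the neuron list was -0.55 and that of the adhesion list -0.64, and all 3 lie below the 0.02 of the annotation, which holds nearly all their members. Against the -0.51 of all unigenes the neuron list had 13 members above and 16 below, and the adhesion list 11 above and 15 below.

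Some unnamed members nearly vanished from the day 16 library. TC14574 had 1 read on day 16 and 452 reads on day 3, a log2 ratio of -8.92 (-14.22 to -6.43). TC20276 had 0 reads on day 16 and 201 reads on day 3, at least 71.7-fold lower against a floor of 3 reads. Both were already low on day 9, with 0 and 2 reads.

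Others had another course. TC15086 had 621, 410, 118, 368 and 9 reads at days 3, 6, 9, 12 and 16, and TC15858 had 409, 245, 122, 231 and 2 reads. TC15086 and TC15858 had more reads on day 12 than on day 9 and few on day 16. TC19246 had 230, 155, 27, 42 and 1 reads, with most of its fall before day 9. These 5 were chosen for their ratios after the values were seen.

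The libraries between show whether a difference was built up by steps. Of the 491 unigenes called higher, 390 peaked on day 16 among the 5 libraries, while 86 peaked on day 12, 14 on day 9 and 1 on day 6. Of the same 491, 148 had a higher RPKM at every step from day 3 to day 16. Of the 1932 called lower, 873 had their lowest RPKM on day 16 and 903 on day 12, and 426 had a lower RPKM at every step. A call between the first and last age favours such orders by itself, so the counts describe and do not test them.

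Of the steepest named members, 3 gained most of their RPKM, on a linear scale, after day 9. TC14476 (venom acid phosphatase) had 0.931, 1.04, 7.42, 71.4 and 587 RPKM at days 3, 6, 9, 12 and 16, and TC13781 (laccase 2) had 6.95, 14.6, 159, 775 and 2285 RPKM. TC14919 (plasma kallikrein match) rose at each step, through 1.45, 11.4, 96.4, 415 and 747 RPKM. TC24109 (mrjp2) followed another course, with 15939, 34027, 78400, 81166 and 37832 RPKM, so its day 16 level lay below that of the 2 ages before. TC14580 (paramyosin) stood at 968 RPKM on day 12 and 914 RPKM on day 16. TC12663 (ribosomal protein S6) had 1571, 1633, 1634, 1298 and 636 RPKM, a fall that came after day 9.

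**Figure D5:**
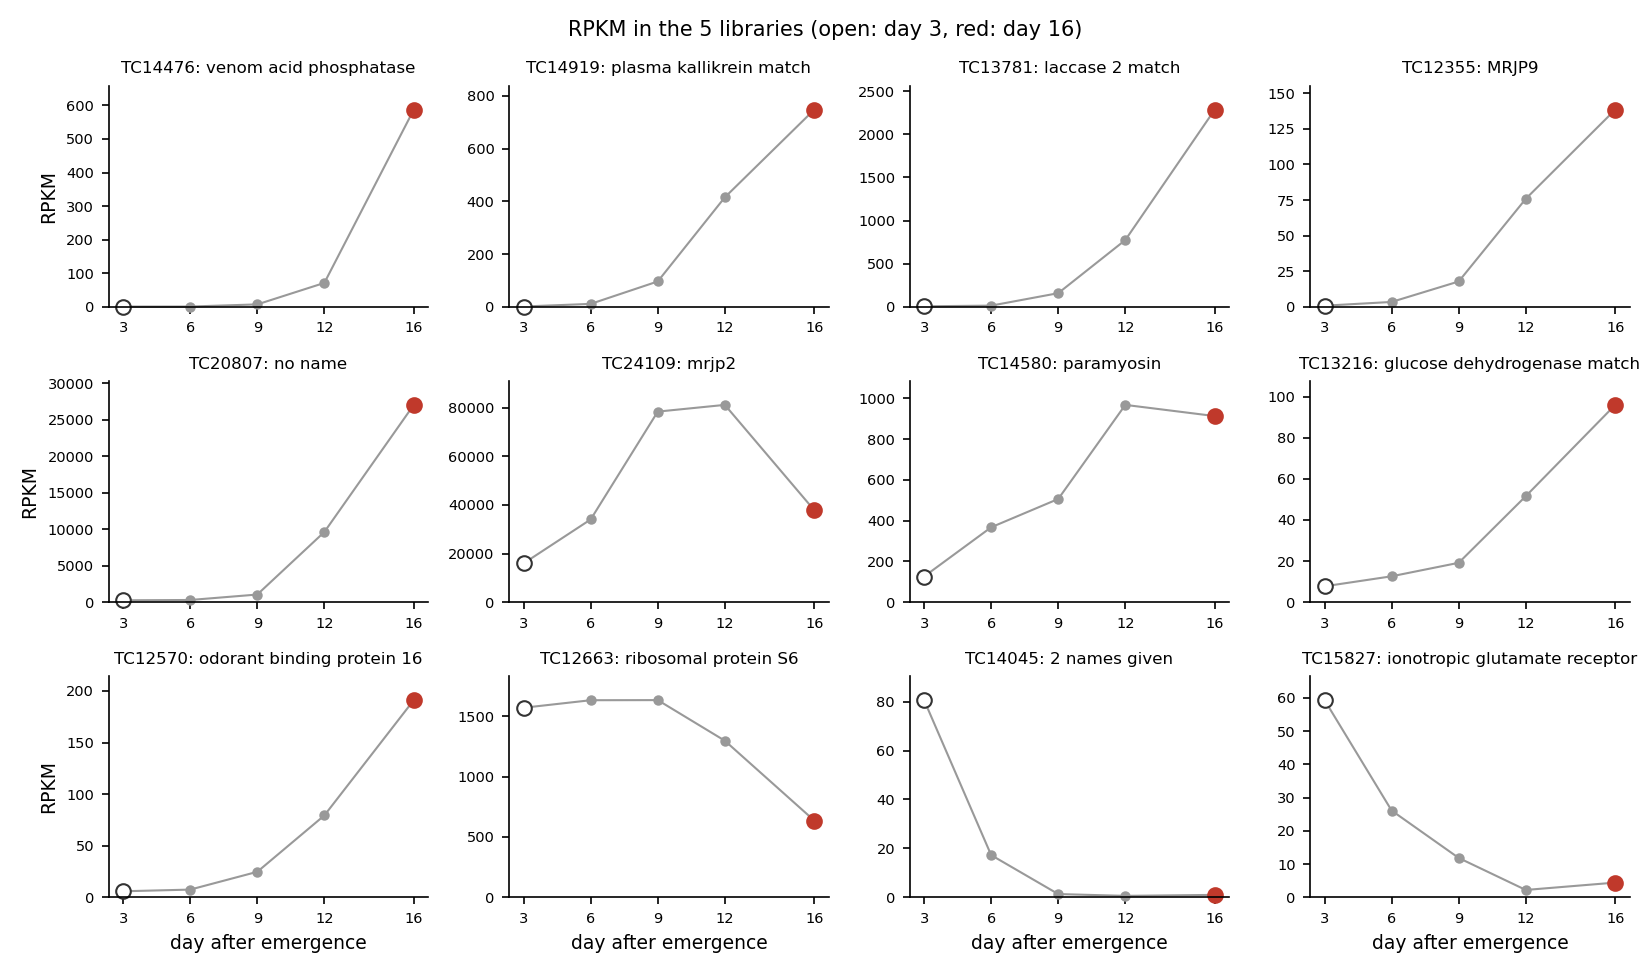
RPKM of 12 named or abundant unigenes in the 5 libraries by day after emergence, with day 16 as a filled red circle, day 3 as an open circle and a linear vertical axis from 0 in each panel. TC14476, TC13781 and TC20807 climb most between days 12 and 16, mrjp2 (TC24109) peaks at 81166 RPKM on day 12, and TC14045 is at 17.3 RPKM on day 6 and 1.34 RPKM on day 9.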

How the data were processed

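RNA from hypopharyngeal glands was sequenced on an Illumina instrument, 1 library per age from a pool of 30 bees. The authors mapped the reads with SOAP2 (version not given in the sources used here), tolerating up to 2 mismatches. The reference was the set of unigenes in the honey bee gene index of DFCI. The authors deposited a count of unique reads for each unigene. The deposited RPKM was made by the authors from that count, the unigene's length and the library's unique reads. The deposited coverage is the fraction of the unigene under unique reads.

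Names came from the authors' annotation (best protein match, otherwise the description) and from the study. Of the annotated unigenes 5752 carry a name. The members, the search words of the 36 gene lists and the tests were chosen with earlier results of these data known. Words that matched unrelated names were removed, and the lists of venom and acid phosphatase names were added, after the names and values had been read. Unigenes named in the text were drawn from several sets, and not every member of each set is given. These sets were the unigenes the study names and the 10 highest RPKM of each library. The 15 highest and 15 lowest called ratios among named unigenes with at least 100 reads over both libraries were another. The last held, of each list, the 3 members, and the 3 called members, with most reads. Other unigenes are named as chosen after their values were seen, among them the unnamed unigenes with the largest ratios and further members of the lists.

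Tests compared unique reads of the day 16 and day 3 libraries (Audic and Claverie, two-sided, Benjamini-Hochberg over 19523 unigenes). Such a test compares 2 libraries, not 2 ages. The study's methods give the thresholds and the test was chosen here. List medians were taken on RPKM plus 0.1, leaving out members under 10 reads. A count of 0 was set to a floor of 3 reads. Intervals (95%) and floors hold for counting error alone, because reads copied by PCR do not count separate molecules. In simulated libraries with the depth of day 16 against day 3 (19523 unigenes), 93.8% of 32 4-fold and 100% of 28 8-fold changes with at least 100 expected reads were recovered, with 0 false calls. Over all depths 50.0% of 100 4-fold and 56.0% of 100 8-fold changes were recovered. No spread between pools was simulated. TMM and an exact test with an assumed coefficient of variation of 0.2 (edgeR 4.0.16), size factors (DESeq2 1.42.0), Fisher's exact test and other limits were tried as alternatives. Scripts ran in Python 3.11.15 with scipy 1.17.1. Primer sequences were copied from the study's supplement.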

Additional observations from a re-analysis of the deposited data

How the results depend on the processing

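With 1 library per age there was no replicate to leave out. No paired analysis was possible because each age has 1 library. TMM gave 828 unigenes called higher and 672 lower on day 16, and DESeq2 size factors gave 792 higher and 712 lower, against 491 and 1932 with the total of unique reads. The total without the 20 unigenes with most reads gave 1013 lower and 658 higher. By construction these scalings raise every ratio, by 0.50, 0.47 and 0.32 on the log2 scale. An assumed coefficient of variation of 0.2 left 225 higher and 118 lower. A minimum absolute log2 ratio of 2 left 305 higher and 341 lower. Testing unigenes with at least 10 reads (507 and 1970) and Fisher's exact test (491 and 1877) moved the counts by less than 1.5 times. Ranked by unique reads instead of RPKM, the 10 unigenes with the most held 26.3% of the day 16 reads and 11.4% of the day 3 reads. Of 264 named unigenes, 67 lost their call and 5 gained one with TMM, and 64 lost and 5 gained one with DESeq2 size factors, with 0 reversed. With every member that had a read, 5 of 35 list medians, set against the median of all unigenes, left the order-statistic range (95%) of the median over members, and with TMM or a pseudocount of 1 RPKM 0 did. Depth limits what can be said of unigenes with few reads, since many members of the annotation did not reach 10 reads.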

Other observations

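Housekeeping names were tested at low depth. Of 87 oxidative phosphorylation names, 65 vesicle traffic names, 61 proteasome and ubiquitin names, 55 DNA replication and cell cycle names, 20 heat shock names, 18 secretory pathway names, 10 apoptosis and autophagy names and 4 glycolysis names, 0 were called in either direction by Audic and Claverie's test on the total of unique reads. With TMM scaling 1 was called, the ubiquitin ligase TC15098, with 61 reads on day 16 and 28 reads on day 3. Among all unigenes of the annotation 2.61% were called higher and 0.328% lower, and few members had reads enough to be called (16 of 87 oxidative phosphorylation and 6 of 20 heat shock names had at least 10 reads), so these counts of 0 describe the depth as much as the groups. These lists hold unigenes under 10 RPKM on day 3, and more abundant unigenes of the same groups were not analysed here.

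Of 50 methyltransferase names, 3 (6.00%) were called lower and 0 higher, beside 0.328% lower in the annotation, where 46 of them lie. TC13507 (methylosome subunit pICln) had 42 reads on day 16 and 87 reads on day 3, and NP9553857 (protein arginine N-methyltransferase 5), its partner in the methylosome, had 22 reads on day 16 and 55 reads on day 3. Both calls were lost with TMM, as was that of TC21859, the third. The study names these 3 among genes changed on day 16 in these libraries, so the 6.00% is not independent of its choice. Among 14 immune names, 1 (7.14%) was called higher and 0 lower, beside 2.61% and 0.328% in the annotation, which holds all 14. It was BI514627 (apidaecin precursor, an antimicrobial peptide of the bee), with 36 reads on day 16 and 9 reads on day 3. Among 171 transporter names 7 (4.09%) were called higher and 1 (0.585%) lower, near the 2.61% and 0.328% of the annotation, and TC12374 (dopamine transporter) had 116 reads on day 16 and 20 reads on day 3.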
